A study of Mus musculus with 2 samples.

Results

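Muscle stem cells (MuSCs, also called satellite cells) were examined by single-cell RNA-Seq in aged mouse hindlimb muscle after intramuscular delivery of retinoid compounds or their solvent. MuSCs were taken as the cells that held at least 5 unique molecular identifiers (UMIs, each marking 1 captured RNA molecule) summed over Pax7, Myf5, Chodl, Cdh15, Calcr and Asb5, and at most 1 UMI summed over the endothelial genes Pecam1 and Cdh5, the fibro-adipogenic gene Pdgfra and the leukocyte gene Ptprc. The gate was met by 907 of 14984 kept cells. It held 394 of 7467 cells in the treated library and 513 of 7517 cells in the control library, and the 14077 remaining kept cells served as the comparison.

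The treated library (ATRA+agonist) came from female C57Bl/6J mice of 24 months given 3 injections of all-trans retinoic acid (ATRA, the active form of vitamin A), CD3254 (an agonist of the retinoid X receptor RXRα) and BMS961 (an agonist of the retinoic acid receptor RARγ). The control library (DMSO vehicle) came from mice of the same strain, sex and age that were injected with dimethyl sulfoxide. The tibialis anterior, gastrocnemius and quadriceps were injected on alternate days, and cells for sequencing came from digested hindlimb muscle of 2 mice pooled in each library. With 1 library per group, no difference between groups has a replicate check, so no test was made. Intervals below are exact 95% intervals for counting error only and do not cover differences between mice or between libraries. Those for levels and ratios of genes treat each UMI as independent. They therefore also leave out variation from cell to cell and are too narrow for genes whose UMIs gather in few cells.

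MuSCs lie between the muscle fiber and its basal lamina and are the source of new myonuclei after injury. At rest they are kept out of the cell cycle, a state marked by the transcription factor Pax7 and supported by Notch signalling and by the calcitonin receptor Calcr. On activation they express Myod1, divide, and either return to rest or turn on Myog and fuse. Retinoic acid acts through RAR and RXR receptors, which bind DNA as heterodimers and alter transcription of nearby genes.

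The gated cells carried the stem cell markers in depth. The marker sum had a median of 19 UMIs in ATRA+agonist and 15 UMIs in DMSO vehicle, against the threshold of 5. At least 3 of the 6 marker genes were detected in 335 gated cells (85.0%) of ATRA+agonist and in 424 (82.7%) of DMSO vehicle, and all 6 were detected in 99 and 74 cells. Around the threshold, 15 and 23 cells had a sum of exactly 5 and were inside the gate, while 14 and 26 cells had a sum of 4 and were outside. A further 48 and 92 cells met the marker sum but carried more than 1 UMI of the excluded genes. Gated cells were deeper than the rest, with a median of 7676 and 6695 UMIs per cell (2586 and 2371 genes) against 4680 and 4799 UMIs in the other kept cells. The libraries shared 43 barcodes, of which 12 were kept in both and 0 were gated in both.

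A minority of gated cells went against the label. In ATRA+agonist 31 gated cells (7.87%) and in DMSO vehicle 59 (11.5%) carried 10 or more UMIs of 8 tenocyte markers (Tnmd, Scx, Fmod, Thbs4, Comp, Kera, Chad and Mkx), and they are called tenocyte-marker cells here. Most of them, 27 and 53, had entered the gate on Chodl alone, and every gated cell with Chodl as its only marker was of this kind. Thbs4, a thrombospondin of tendon matrix, was at 7637 and 9310 UMIs per 1000000 UMIs (CPM, computed on summed cells) in them and at 1.33 and 0.564 CPM in the remaining gated cells. Fmod, a tendon proteoglycan, was at 4650 and 4855 CPM against 0 and 2.26 CPM, whereas Pax7 was at 74.1 and 16.3 CPM against 519 and 327 CPM. Most gated cells, 304 and 386, held 0 UMIs of the tenocyte list, 59 and 68 held 1 to 8, and the tenocyte-marker cells held at least 12 and 10. The gap at the limit was thus narrow, and the limit was set after the data were seen. Of the tenocyte-marker cells, 4 and 6 held 2 or more gate genes. Outside the gate, Chodl was detected in 38.6% and 34.6% of the 207 and 566 other kept cells that met the same tenocyte criterion, and in 0.757% and 1.44% of the rest. Results that rest on these cells are given with and without them, which leaves 363 and 454 gated cells.

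**Figure D1:**
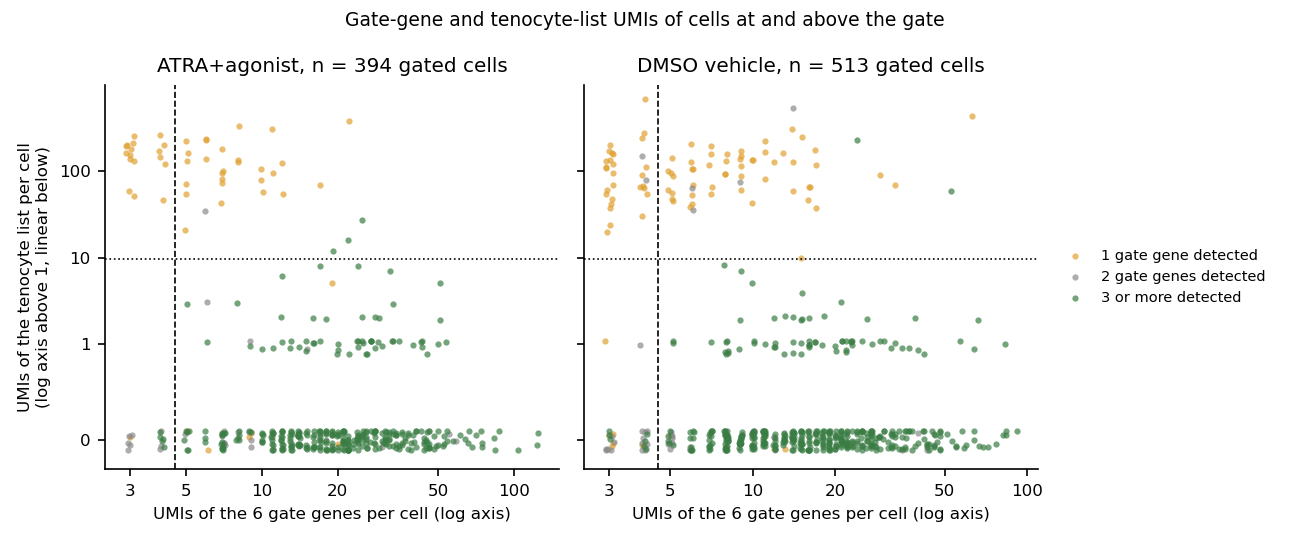
UMIs of the 6 gate genes per cell (horizontal log axis) against UMIs of the tenocyte list per cell (vertical axis, log above 1 and linear below), with 1 point per cell, coloured by the number of gate genes detected. The dashed line is the threshold of 5, with cells of sum 3 and 4 to its left, and the 31 and 59 gated cells above the dotted line at 10 tenocyte UMIs mostly carry 1 gate gene.

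Each of the 6 gate genes was far above its level in the other kept cells, which the rule itself fixes, and the values describe how strongly the gated cells held them. Pax7 (ENSMUSG00000028736, chr4:139737062-139833528, minus strand, GRCm38), the transcription factor that defines the lineage, was at 486 CPM (462.5-511) in ATRA+agonist and 293 CPM (277-311) in DMSO vehicle, against 5.53 and 4.17 CPM in the other kept cells. Myf5, a myogenic regulatory factor already transcribed in resting MuSCs, was at 266.5 CPM (249-285) and 267.5 CPM (252-284). Calcr was at 273 CPM (255-291) and 234 CPM (219-249.6), and Cdh15, the adhesion protein M-cadherin, was at 171 CPM (157-186) and 135 CPM (123.5-146.5). Asb5, an ankyrin repeat protein, was at 1109.6 CPM (1074-1146) and 977 CPM (947-1009). Chodl, a C-type lectin, was at 543 CPM (518-569) and 609.7 CPM (586-634.5). By counting error alone, Pax7, Calcr, Cdh15 and Asb5 were higher in ATRA+agonist, Chodl was lower, and the intervals of Myf5 overlapped. These intervals leave out variation from cell to cell. In ATRA+agonist and DMSO vehicle, 10 cells held 22.6% and 27.3% of Calcr UMIs and 19.8% and 15.1% of Asb5 UMIs. Whether the small differences of Calcr and Asb5 exceed that variation was not tested. Without tenocyte-marker cells Chodl was at 505.5 and 501 CPM, a log2 ratio of 0.01, so its lower value was held by those cells.

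**Figure D2:**
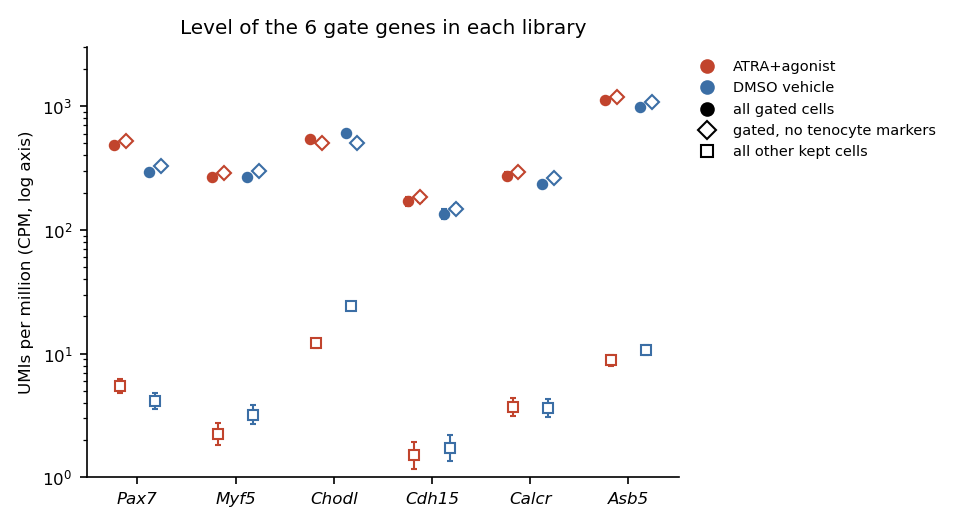
Level of each gate gene in CPM, on a log axis, in all gated cells (circles), gated cells without tenocyte markers (diamonds) and all other kept cells (squares) of each library, with exact 95% counting intervals as bars. Pax7 stands at 486 CPM in gated cells of ATRA+agonist and 293 CPM in those of DMSO vehicle, while Myf5 stands at 266.5 and 267.5 CPM.

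The promoters of gate genes and of 3 genes described further on are shown for the motifs they hold. E-boxes (CANNTG) are bound by Myf5, MyoD and myogenin, and metal response elements are bound by the factor that induces metallothioneins. Each is 250 bases before to 50 bases after the start of transcription, from RefSeq (GRCm38.p6), written on the strand of the gene with E-boxes in capitals. Pax7 is at chr4:139832919-139833218 (minus strand), Cdh15 at chr8:122848124-122848423, Chodl at chr16:78930698-78930997 and Myog, the transcription factor of commitment to differentiation, at chr1:134289754-134290053 (all plus strand).
Pax7: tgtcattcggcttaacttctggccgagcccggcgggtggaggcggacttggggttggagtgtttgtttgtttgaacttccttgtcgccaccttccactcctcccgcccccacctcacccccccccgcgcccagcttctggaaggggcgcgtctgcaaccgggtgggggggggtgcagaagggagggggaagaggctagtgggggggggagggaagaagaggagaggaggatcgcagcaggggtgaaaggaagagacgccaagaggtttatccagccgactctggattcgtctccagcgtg
Cdh15: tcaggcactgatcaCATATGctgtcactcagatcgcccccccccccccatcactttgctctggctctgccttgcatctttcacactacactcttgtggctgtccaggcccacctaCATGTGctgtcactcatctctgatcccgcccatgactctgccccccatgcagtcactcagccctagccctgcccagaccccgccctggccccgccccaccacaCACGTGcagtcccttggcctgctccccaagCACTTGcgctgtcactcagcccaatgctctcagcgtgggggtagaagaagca
Chodl: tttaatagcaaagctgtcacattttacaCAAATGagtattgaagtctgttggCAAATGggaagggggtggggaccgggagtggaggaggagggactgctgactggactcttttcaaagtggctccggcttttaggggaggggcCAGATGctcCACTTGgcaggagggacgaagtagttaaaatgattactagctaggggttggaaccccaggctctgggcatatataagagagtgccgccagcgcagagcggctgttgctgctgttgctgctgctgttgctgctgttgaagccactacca
Myog: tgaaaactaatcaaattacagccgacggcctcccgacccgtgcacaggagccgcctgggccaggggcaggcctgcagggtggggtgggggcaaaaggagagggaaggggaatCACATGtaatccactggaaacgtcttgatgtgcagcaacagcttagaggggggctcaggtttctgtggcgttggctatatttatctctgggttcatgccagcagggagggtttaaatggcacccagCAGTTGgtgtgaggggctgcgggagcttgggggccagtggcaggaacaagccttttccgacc

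The windows of Cdh15 and Chodl held 4 E-boxes each and that of Myog held 2, while the letters CANNTG did not occur in the Pax7 window. E-boxes are common, and 72.3% of all 32851 promoter windows of this length held at least 1 on either strand. Among genes at least 2-fold higher in gated than in other kept cells, 66.5% of 412 windows held an E-box, near the 65.2% of 15030 windows of all genes counted in that comparison. The subset CAGCTG, which is counted among the E-boxes as well, was in 19.4% of the 412 windows and 16.0% of the 15030.

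The program of the gated cells against all other kept cells comprised 401 genes that were at least 2-fold higher in both libraries after 10 CPM was added to each level. They are 2.57% of the 15582 genes with at least 100 UMIs over all kept cells, and 428 genes (2.75%) met the same rule when tenocyte-marker cells were left out. Since the gate chose these cells by expression, the values are a description of the program and carry no test. Leaving out the gate genes, the 20 highest by the lower of the library ratios were led by Hs6st3, which adds sulfate to heparan sulfate chains, at 1452 CPM in ATRA+agonist and 1169.6 CPM in DMSO vehicle against 27.5 and 21.2 CPM in other kept cells. Its paralog Hs6st2 was higher by 4.35 and 4.13 on the log2 scale. Tenm4, a teneurin transmembrane protein tied to quiescence, was at 593 and 576 CPM against 13.6 and 15.1 CPM. Col19a1, a collagen, was at 324 and 278 CPM against 4.87 and 5.63 CPM.

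The remaining genes of the 20 are given by their known roles, grouped after their values were seen. The phosphodiesterases Pde1c and Pde4d, which degrade cyclic nucleotides, were higher than in other kept cells by 4.40 and 3.82 (log2) in ATRA+agonist and by 4.17 and 3.22 in DMSO vehicle, and the adenylate cyclase Adcy2 was higher by 4.20 and 3.29. The FGF receptor Fgfr4 was at 192 and 126 CPM (log2 3.98 and 3.40), and it was joined by the agrin-responsive kinase Musk of the neuromuscular junction (213 and 196 CPM, log2 3.71 and 3.18) and the nucleotide-sugar receptor P2ry14 (log2 3.31 and 3.27). Genes of muscle structure and stretch were the slow myosin-binding protein gene Mybpc1 (192 and 249 CPM, log2 3.38 and 3.96), the filamin Flnc (log2 3.19 and 3.18) and the stretch-responsive Ankrd1 (log2 3.57 and 3.23). The imprinted zinc finger gene Peg3 was at 492 and 628 CPM (log2 3.64 and 3.45), and the homeobox gene Prox1 was higher by 3.39 and 3.27. Nol4, Thsd4 and Sytl2 were higher by 3.21 to 3.77 on the log2 scale. Chrdl2, a secreted BMP antagonist, was also among the 20 genes, at 100.3 and 116 CPM (log2 3.32 and 3.47).

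**Figure D3:**
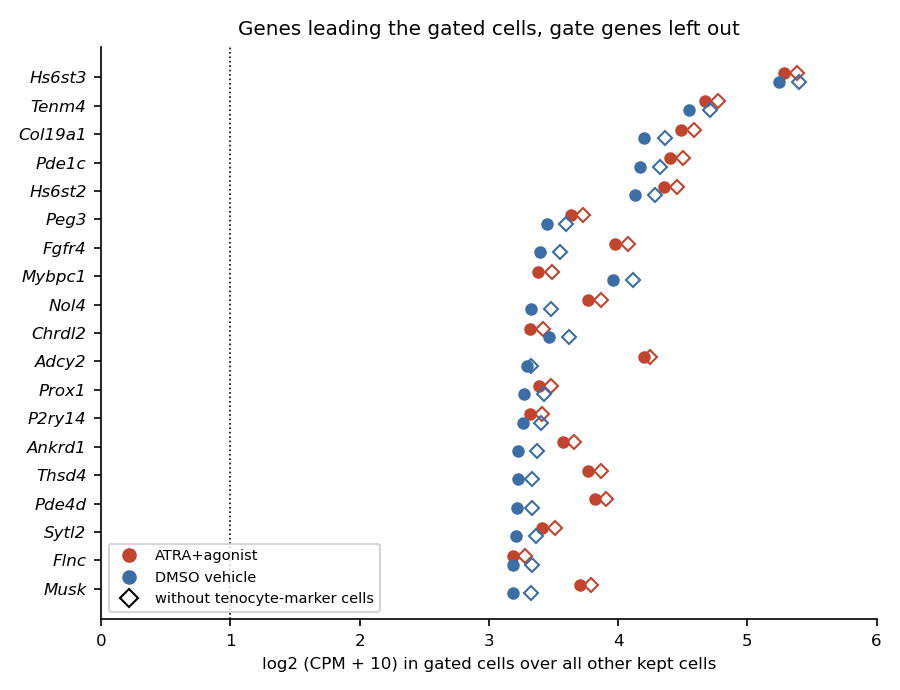
Log2 ratio of gated over all other kept cells, with 10 CPM added to each level, for 19 of the 20 leading genes in each library, with diamonds for the ratio without tenocyte-marker cells and a dotted line at 2-fold. Hs6st3 leads at 5.28 and 5.24, and leaving out tenocyte-marker cells places every gene shown slightly higher.

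Known satellite cell gene groups were placed in this program by the same 2-fold rule, among genes with at least 100 UMIs in gated cells. Of all 7358 such genes, 398 (5.41%) were at least 2-fold higher in gated than in other kept cells of both libraries and 411 (5.59%) were at least 2-fold lower. Among 25 surface proteins and receptors, 21 had enough UMIs to be counted between libraries and 10 were higher than in other kept cells, including the adhesion molecule Ncam1 (log2 3.75 in ATRA+agonist and 2.75 in DMSO vehicle), the engulfment receptor Megf10 (3.78 and 2.81), the heparan sulfate proteoglycan Sdc4 (2.84 and 2.61) and the VLA-4 ligand Vcam1 (2.71 and 1.91). Cd34, Tgfbr2 and Lifr of that list were at least 2-fold lower. Myogenic transcription factors gave 4 of 10, namely Myod1 (2.87 and 2.65), Msc (2.28 and 2.71), Pax3 (1.99 and 1.58) and Lbx1 (1.77 and 1.36). In the Notch pathway 2 of 9 genes were higher, the receptor Notch3 (3.01 and 2.61) and the target Heyl (2.84 and 2.38). Quiescence genes gave 4 of 16, namely Tenm4, Peg3, Chrdl2 and Heyl.

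Stress hormone and matrix genes added smaller groups. Among 12 glucocorticoid-responsive genes, 4 were at least 2-fold higher than in other kept cells, including the kinase inhibitor Errfi1 (2.94 and 2.33) and Pdk4, which restrains pyruvate oxidation (2.49 and 2.49). Of 22 basal lamina and adhesion genes, Col19a1, the dystroglycan gene Dag1 (2.95 and 2.25) and the laminin receptor gene Itga7 (1.74 and 1.48) were higher, and 6 were lower, among them Fn1 and Nid1. Interferon-response and antigen-presentation genes were low, with 11 of 21 at least 2-fold below the other kept cells and 0 above.

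Gated cells made up 5.28% of kept cells (4.78-5.81) in ATRA+agonist and 6.82% (6.26-7.42) in DMSO vehicle, a ratio of 0.773. Without tenocyte-marker cells the shares were 4.86% (4.38-5.37) and 6.04% (5.51-6.60), a ratio of 0.805. The gate counts UMIs, and the shares differed with depth. Among the 6154 and 6617 kept cells with at least 2000 UMIs, which leaves out 1313 and 900, the shares were 6.30% and 7.60%, a ratio of 0.829. When those same cells were thinned to 2000 UMIs before gating, 240 and 267 passed, which is 3.90% and 4.04%, a ratio of 0.967. They also depend on the other cells recovered, and with cells carrying Ptprc left out of the denominator they were 6.78% and 7.84%, a ratio of 0.865. Over 15 alternatives the ratio lay between 0.735 and 0.967. How many cells of each type were lost in digestion and sorting cannot be told apart from their number in the muscle.

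Between the libraries, most genes of the gated cells were close. Over the 7358 genes with at least 100 UMIs in gated cells of both libraries combined, the log2 ratio of ATRA+agonist over DMSO vehicle had a median of 0.01 and its middle 50% lay between -0.17 and 0.20. At least 1.5-fold differences were found for 234 genes (3.18%) that were higher and 303 (4.12%) that were lower in ATRA+agonist. Without tenocyte-marker cells 6895 genes were counted, of which 266 (3.86%) were higher and 222 (3.22%) lower. Of the 303 lower genes, 175 were also lower without these cells and 88 no longer had enough UMIs, so that part of the lower set was carried by the tenocyte-marker cells. Ratios given below for the other kept cells pool many cell types, and over the same 7358 genes the median log2 ratio there was 0.01. The mix of types differed between the libraries, with summed lymphoid markers at 4192 and 899 CPM and myeloid markers at 2995 and 6970 CPM. How much of those ratios came from the mix was not tested.

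Pax7 was the only gate gene past 1.5-fold, at a log2 ratio of 0.73 (0.62 to 0.84), and it was 0.67 without tenocyte-marker cells. The ratio lay between 0.60 and 0.81 over the alternatives. Because Pax7 also admits cells to the gate, it was recomputed in the 380 and 496 cells that met the gate on the other 5 genes, where it was at 489 and 288 CPM, a log2 ratio of 0.76 (0.65 to 0.88). Those cells still included 31 and 59 tenocyte-marker cells. Pax7 was detected in 82.0% (77.8-85.6) and 72.5% (68.4-76.3) of gated cells, and in 58.5% (53.4-63.5) and 43.3% (39.0-47.8) after thinning every cell to 2000 UMIs. Without tenocyte-marker cells it was detected in 88.2% (84.4-91.3) and 81.5% (77.6-85.0), where the intervals overlap. After thinning those shares were 63.0% (57.8-68.0) and 48.7% (43.9-53.4). In other kept cells it was detected in 0.778% and 0.971%, and in 0.590% and 0.523% after thinning. By the same leave-one-out gating Cdh15 was at a log2 ratio of 0.37, Calcr at 0.29, Asb5 at 0.16, Chodl at 0.05 and Myf5 at 0.02.

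Of the 7 genes that the study singled out on these same libraries, which are therefore not independent evidence, Pax7 and Id1 were past 1.5-fold. The study called genes in its own MuSC cluster, over single cells and at a fold limit below 1.5. The 1.5-fold line is thus no check of its calls, and all 7 genes had the direction it gave. Id1 and Id3 encode proteins that bind E-box factors such as MyoD and keep them off DNA. Id1 was at 159 CPM (146-174) in ATRA+agonist and 89.8 CPM (80.8-99.7) in DMSO vehicle, a log2 ratio of 0.83 (0.63 to 1.03), and Id3 was at 1112 CPM (1076-1149) and 742 CPM (716-769), a log2 ratio of 0.58 (0.51 to 0.65). In the other kept cells both were lower in ATRA+agonist, at -0.45 and -0.66. Sirt2, an NAD-dependent deacetylase, was at 109 CPM (97.6-121) and 83.5 CPM (74.8-93.0), a log2 ratio of 0.38 (0.16 to 0.60). Rock2, a kinase that acts on the actin cytoskeleton, was at 606.5 and 794 CPM, a log2 ratio of -0.39.

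The metallothioneins Mt1 and Mt2, small cysteine-rich proteins that bind zinc and are induced by metals, glucocorticoids and oxidative stress, were lower in ATRA+agonist. Mt1 was at 2156 CPM (2106-2207) and 2887 CPM (2834-2940), a log2 ratio of -0.42, and Mt2 was at 716 CPM (687-746) and 1035 CPM (1004-1067), a log2 ratio of -0.53. Without tenocyte-marker cells Mt2 was at -0.59, just past 1.5-fold. In the other kept cells, whose mix of types differed between the libraries, the log2 ratios were -0.83 for Mt1 and -0.93 for Mt2. Lower Mt1 and Mt2 were thus not confined to the gated cells, and the part of cell mix was not tested. Their promoters on chromosome 8 (chr8:94178839-94179138 and chr8:94172368-94172667, plus strand, GRCm38.p6, RefSeq) are shown with the metal response core TGCACNC or TGCGCNC, on either strand, in capitals.
Mt1: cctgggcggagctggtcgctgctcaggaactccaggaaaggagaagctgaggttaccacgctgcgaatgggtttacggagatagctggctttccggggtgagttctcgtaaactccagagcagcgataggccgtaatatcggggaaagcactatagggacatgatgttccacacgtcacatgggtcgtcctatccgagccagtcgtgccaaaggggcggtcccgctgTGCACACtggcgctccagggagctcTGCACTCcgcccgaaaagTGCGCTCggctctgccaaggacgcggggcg
Mt2: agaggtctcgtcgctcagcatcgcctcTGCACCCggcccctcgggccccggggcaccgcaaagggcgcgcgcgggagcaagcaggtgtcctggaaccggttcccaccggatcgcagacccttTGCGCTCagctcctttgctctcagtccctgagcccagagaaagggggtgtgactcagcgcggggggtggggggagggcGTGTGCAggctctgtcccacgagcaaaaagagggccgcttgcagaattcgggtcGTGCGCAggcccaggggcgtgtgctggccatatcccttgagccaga

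The core occurred 3 times in the Mt1 window and 4 times in that of Mt2, and 25.7% of all promoter windows held at least 1. Among genes counted between the libraries, 36.6% of 7579 windows held at least 1. The nuclear receptor core AGGTCA, searched on both strands, was in 21 of 219 windows of genes higher in ATRA+agonist (9.59%) and in 38 of 316 windows of lower genes, against 11.9% of 7579 windows of all genes counted.

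Immediate early genes were mostly higher in ATRA+agonist. These genes are transcribed within minutes of growth factor signals, injury or tissue dissociation, and in MuSCs Fos and Jun are among the earliest transcripts of activation. Of 20 counted, 6 were higher, 0 were lower and 16 had a positive log2 ratio, with a median of 0.38 against 0.01 over all genes. Over all 7358 counted genes 3.18% were higher and 4.12% lower. Fos was at 4275 CPM in gated cells of ATRA+agonist and 2064 CPM in those of DMSO vehicle, a log2 ratio of 1.05 (1.01 to 1.09). Its AP-1 partners Jun (2133 and 1276 CPM, log2 ratio 0.74) and Junb (2674 and 1636 CPM, 0.71) were higher as well. So were the antiproliferative gene Btg2 (985 and 559 CPM, 0.82), the zinc finger gene Klf2 (331 and 181 CPM, 0.87) and the mRNA-decay factor Zfp36 (740 and 477 CPM, 0.63). The lowest member was Ier5 at -0.52.

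In the other kept cells the same list had a median of -0.07, with Fos at 2250 and 2363 CPM. Cell by cell, after thinning to 2000 UMIs, the list took a median of 2.35% of the UMIs of a gated cell in ATRA+agonist and 1.70% in DMSO vehicle, against 1.55% and 1.80% in other kept cells. The cells overlapped widely, the middle 50% lying between 1.45% and 3.40% in ATRA+agonist and between 1.075% and 2.50% in DMSO vehicle. Fos was detected in 91.9% and 91.0% of gated cells, and in 87.4% and 75.5% once thinned. The median log2 ratio of the list was 0.24 in thinned cells.

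**Figure D4:**
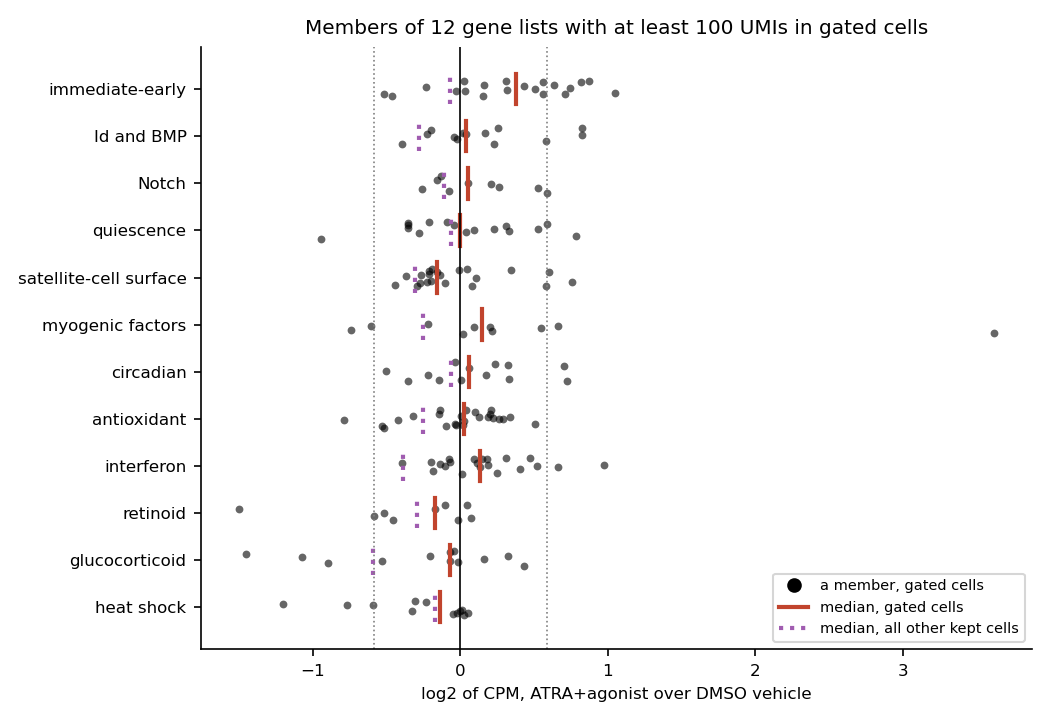
Log2 ratio of ATRA+agonist over DMSO vehicle in gated cells for each counted member of 12 gene lists, with 1 point per gene, the list median in gated cells as a solid bar and that in all other kept cells as a dotted bar, and dotted lines at 1.5-fold. Immediate early genes lie mostly above 0 with a median of 0.38, and the point at 3.62 among the myogenic factors is Myog.

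Heat shock and glucocorticoid-responsive genes each had 3 of 12 members lower in ATRA+agonist and 0 higher. Over all 7358 counted genes 4.12% were lower and 3.18% higher. The chaperones Hspa1b (37.5 and 86.6 CPM, log2 ratio -1.21), Hsph1 (-0.77) and Hspa1a (-0.59) made up the heat shock set, whose median was -0.14 in gated and -0.17 in other kept cells. Tsc22d3, the glucocorticoid-induced leucine zipper, was at 36.3 and 99.4 CPM, a log2 ratio of -1.45, and -1.07 without tenocyte-marker cells. Zbtb16 (81.9 and 173 CPM, -1.08) and the receptor co-chaperone Fkbp5 (57.9 and 108 CPM, -0.90) were lower too. The glucocorticoid list had a median of -0.07 in gated cells and -0.59 in the other kept cells, where the median over all counted genes was 0.01.

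Lists tied to resting MuSCs had medians near 0. Their counts stand beside 3.18% higher and 4.12% lower over all 7358 counted genes. Notch genes had a median of 0.05 with 1 of 9 higher, Heyl at 140 and 92.9 CPM (log2 ratio 0.59, and 0.52 without tenocyte-marker cells), and the target Hes1 was at 0.53. At equal depth Hes1 was detected in 10.6% and 10.1% of gated cells and held 0.137 and 0.133 UMIs per cell, so the libraries were close. Quiescence genes had a median of 0.00 with Foxo4 (24.3 and 14.1 CPM, 0.79) and Heyl higher and Foxo3 (54.2 and 104 CPM, -0.95) lower. Among satellite cell surface genes, Megf10 (230 and 136 CPM, 0.76) and Fgfr4 (0.60, and 0.54 without tenocyte-marker cells) were higher, 0 of 21 were lower and the median was -0.16, against -0.31 in other kept cells. Vcam1, at 306 and 205 CPM, was at 0.58 and did not pass 1.5-fold. Among 13 Id and BMP pathway genes, Id1 and the ligand gene Bmp4 (178 and 100.4 CPM, 0.82) were higher, with a list median of 0.04 against -0.28 in the other kept cells.

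Myogenic transcription factors went in both directions, while 3.18% of all 7358 counted genes were higher and 4.12% lower. Of the 10 factors counted, Myog and Lbx1 (27.1 and 17.1 CPM, log2 ratio 0.66) were higher. The homeobox gene Six4 (14.2 and 23.7 CPM, -0.74) and the repressor Msc (59.1 and 89.8 CPM, -0.60) were lower. Myod1 was at 70.8 and 61.7 CPM, a log2 ratio of 0.20 (-0.07 to 0.46), and Pax3 at 31.7 and 21.6 CPM, a log2 ratio of 0.55 (0.12 to 0.98). Among 8 cell cycle genes Ccnd1, the cyclin of G1 entry, was higher (112 and 70.2 CPM, 0.68) and its partner kinase gene Cdk6 was lower (52.0 and 85.3 CPM, -0.71).

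Retinoid pathway genes were sparse in gated cells. Only 9 of 24 had enough UMIs, 0 were higher and 2 were lower, among them the retinol dehydrogenase Rdh10 (13.2 and 19.9 CPM, log2 ratio -0.59). Over all 7358 counted genes 3.18% were higher and 4.12% lower. The receptors targeted by the compounds were at 13.8 and 13.3 CPM for Rxra and at 37.5 and 38.0 CPM for Rarg, with log2 ratios of 0.05 (-0.55 to 0.65) and -0.02 (-0.37 to 0.34). The retinol receptor Stra6 had 2 and 1 UMIs in all gated cells, too few for a ratio. Without tenocyte-marker cells 7 genes of the list were counted, of which 1 was lower.

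Other lists had few members past 1.5-fold, beside 3.18% higher and 4.12% lower over all 7358 counted genes. Among 24 antioxidant genes only Txnip, a thioredoxin inhibitor, was past 1.5-fold (-0.79), and it was at 0.10 without tenocyte-marker cells, where Mt2 passed instead. The 24 genes had a median of 0.02 in gated cells and -0.25 in the other kept cells. Interferon-response genes had a median of 0.13 in gated cells with Gbp3 (20.3 and 10.3 CPM, 0.98) and Irf7 (0.66) higher, against a median of -0.39 in the other kept cells. Only 19 were counted without tenocyte-marker cells, and 0 of them passed 1.5-fold. Among 13 clock genes Dbp (54.5 and 33.0 CPM, 0.72) and Bhlhe41 (0.70) were higher. Of 22 basal lamina and adhesion genes 3 were lower, including Fn1 (-0.99) and Nid1 (-0.83), and the sarcoglycan gene Sgca was higher at 1.10. Without tenocyte-marker cells 19 were counted, the 3 lower genes had too few UMIs and 0 were lower, while 1 was higher, at 1.06. The 13 mitochondrially encoded genes had a median of 0.11 with 0 past 1.5-fold, and neither of the 2 sirtuins counted passed it.

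Among 375 genes that were at least 2-fold higher in gated than in other kept cells of both libraries, with at most 50% of their UMIs in 10 cells, the 10 highest ratios were led by Grin2a (ENSMUSG00000059003, chr16:9567898-9995560, minus strand), a subunit of the NMDA glutamate receptor. It was at 113 CPM (101-125) in ATRA+agonist and 35.5 CPM (29.9-41.9) in DMSO vehicle, a log2 ratio of 1.67 (1.38 to 1.96), and 1.59 without tenocyte-marker cells. It was detected in 88 cells (22.3%, 18.3-26.8) and 65 cells (12.7%, 9.92-15.9), against 0.368% and 0.286% of other kept cells. After thinning it was detected in 13.1% and 6.36% of gated cells, against 0.156% and 0.180% of other kept cells. Over the alternatives its ratio lay between 1.56 and 1.74.

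The other 9 higher genes had log2 ratios from 0.73 to 1.05. They were C1qtnf3, a secreted C1q-related protein (120 and 57.9 CPM, 1.05), the cation exchanger Slc24a2 (65.9 and 33.2 CPM, 0.99), the antisense transcript Gm37982 (0.92), the imprinted gene Zdbf2 (65.9 and 36.7 CPM, 0.84), the kinase scaffold Ksr2 (86.5 and 48.3 CPM, 0.84), Popdc2 (0.78), Megf10, Lix1 (0.75) and Anks1b (201 and 121 CPM, 0.73). In thinned cells C1qtnf3 was at 0.05, Ksr2 at 0.35, Popdc2 at 0.37 and Zdbf2 at 0.58, so these 4 did not hold 1.5-fold at equal depth per cell. Reads of Gm37982 cannot be separated with certainty from those of overlapping genes.

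The 10 lower genes were led by Gm14636 (ENSMUSG00000073274), a processed transcript on the X chromosome, at 92.9 CPM (82.7-104) and 222 CPM (207-237), a log2 ratio of -1.25 (-1.45 to -1.06). Cep128, a centriolar protein gene, was at 129.5 CPM (118-142.5) and 263.5 CPM (248-279.9), a log2 ratio of -1.02. Glis3, a zinc finger transcription factor, was at 181 and 336 CPM (-0.90), and Rcan2, a calcineurin regulator, at 218 and 373 CPM (-0.78). Nppc, which encodes C-type natriuretic peptide, was at 116 and 192 CPM (-0.72). Pcbp3, Npas3, Six2, Stxbp5l and Eppk1 had log2 ratios from -0.68 to -0.62, and Pcbp3 was at -0.02 in thinned cells.

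**Figure D5:**
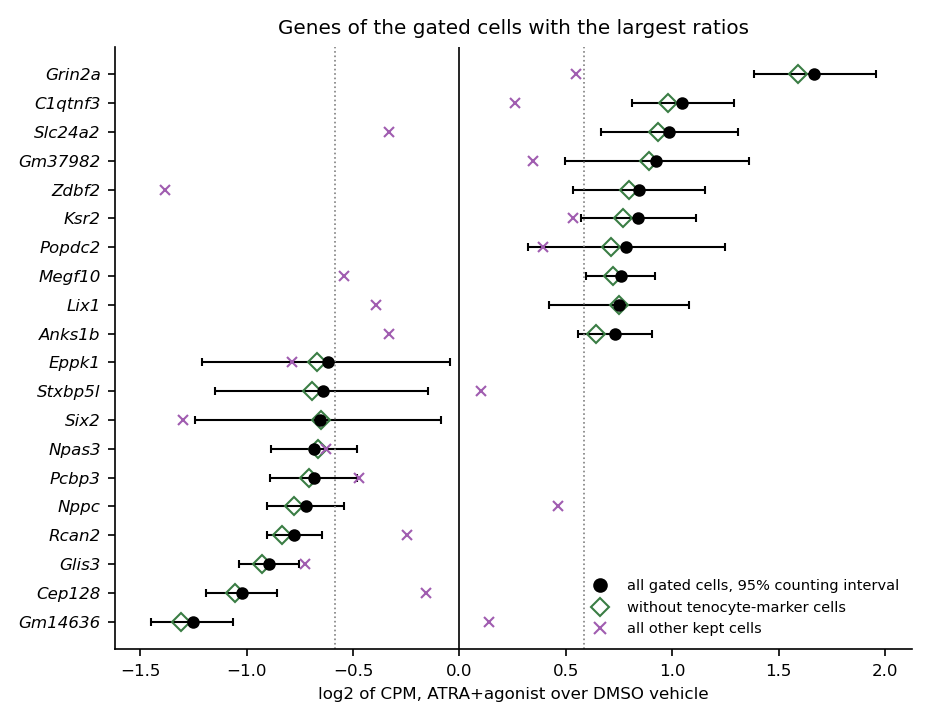
Log2 ratio of ATRA+agonist over DMSO vehicle for the 10 named higher and 10 named lower genes in all gated cells (circles, with exact 95% counting intervals as bars), without tenocyte-marker cells (diamonds) and in all other kept cells (crosses), with dotted lines at 1.5-fold. Grin2a is the highest at 1.67 and Gm14636 the lowest at -1.25.

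The largest ratios over all genes sat in a few cells. Myog had 352 UMIs in 12 gated cells (3.05%, 1.58-5.26) of ATRA+agonist and 35 UMIs in 2 cells (0.390%, 0.047-1.40) of DMSO vehicle, a log2 ratio of 3.62 (3.12 to 4.17), and cells with 10 or more Myog UMIs numbered 6 and 1. Thinned to 2000 UMIs, 1.55% (0.570-3.34) and 0.398% (0.048-1.43) of gated cells had Myog. Tnnt2, the troponin of early myotubes, followed with 138 and 23 UMIs in 4 cells and 1 cell (2.88), and Acta1, skeletal actin, with 146 and 39 UMIs (2.19), although it was at -1.39 with a marker sum of at least 3. The cardiac actin gene Actc1, expressed in forming muscle, had 142 UMIs in 4 cells and 0 UMIs in DMSO vehicle, and 120 of the UMIs came from 1 cell. Rab27b, with 76 and 24 UMIs, was at 1.95.

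The 12 cells of ATRA+agonist with Myog differed from its 382 other gated cells in genes of myogenic commitment and fusion. Pax7 was at 145 CPM against 508 CPM, Myod1 at 306 against 55.9 CPM, and the fusion genes Mymk and Mymx had 41 UMIs each against 0. Calcr had 0 UMIs in them and 886 UMIs in the others. They were also deep, with a median of 16446.5 UMIs against 7543. These cells were chosen by Myog, so the values are a description. Outside the gate 14 other kept cells of ATRA+agonist held 164 Myog UMIs and 2 of DMSO vehicle held 2. The differentiation list, with 3 of 6 genes higher and a median of 1.59, had a median of 0.20 without the Myog cells, and Acta1 was at 0.57.

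The lowest ratios over all genes were carried in part by tenocyte-marker cells. Ctla2a, a cathepsin inhibitor, had 27 and 1264 UMIs (-5.26), of which 853 in DMSO vehicle came from 1 cell and 99.5% from tenocyte-marker cells, and 7 and 6 UMIs remained without those cells. The sodium-calcium exchanger Slc8a1 (29 and 216 UMIs, -2.61) and the metalloproteinase Mmp3 (24 and 176 UMIs, -2.58) followed, with 0 and 2 UMIs of Slc8a1 and 0 and 0 of Mmp3 left without those cells. The lipocalin Apod (287 and 1369 UMIs, -1.96) had 89.0% of its vehicle UMIs in tenocyte-marker cells and was at -3.30, from 13 and 151 UMIs, without them. The matrix gene Postn (62 and 312 UMIs, -2.04) was at -2.17 without them, from 33 and 175 UMIs in 9 and 27 cells, and at -0.95 with a marker sum of at least 3.

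Cycling markers were rare among gated cells, whereas the activation gene Myod1 was not. Myod1 was detected in 20.1% (16.2-24.4) of gated cells in ATRA+agonist and 19.1% (15.8-22.8) in DMSO vehicle. After thinning it was detected in 8.76% and 9.54%, so that its shares overlapped. In other kept cells it was detected in 0.424% and 0.243%, and in 0.243% and 0.114% after thinning. Mki67, a marker of dividing cells, was detected in 17 cells (4.31%, 2.53-6.82) and 5 cells (0.975%, 0.317-2.26), but in 3 and 1 cells (0.773% and 0.199%) after thinning, where the intervals of 0.160% to 2.24% and 0.005% to 1.10% overlap. In other kept cells 2.33% and 2.14% had Mki67, and 0.711% and 0.883% after thinning. Top2a, needed to separate chromosomes, was detected in 9 cells of each library. The thinned shares leave out 6 and 10 gated cells that had fewer than 2000 UMIs.

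Variation from cell to cell was measured as the Fano factor, the variance of a gene's UMIs over their mean, in 357 and 446 cells thinned to 2000 UMIs and without tenocyte markers. Over 3338 genes in ATRA+agonist the median was 1.21, and over 3249 in DMSO vehicle it was 1.19, while 1 is the value of random sampling. Among the most variable genes in both libraries were Mt1 (9.20 and 9.65), Fos (8.78 and 8.72), Sulf1, which trims sulfate from heparan sulfate (11.7 and 8.61), and the interferon-inducible GTPase Iigp1 (7.53 and 6.30). The nuclear RNA Malat1 was at 23.7 and 13.8. Cdkn1c, a cell cycle inhibitor, was at 11.8 in ATRA+agonist, where 76.7% of its UMIs came from 10 cells, and Cxcl10, an interferon-induced chemokine, was at 7.58 in DMSO vehicle.

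Markers of most other cell types were below their level in other kept cells. Summed over each list, endothelial markers were at 40.6 and 67.4 CPM against 5913 and 6484 CPM in other kept cells, myeloid markers at 21.5 and 38.0 against 2995 and 6970 CPM, and lymphoid markers at 23.7 and 21.9 against 4192 and 899 CPM, with 3 lymphoid markers at 0. Pecam1, Cdh5, Pdgfra and Ptprc were limited by the gate itself. Fibro-adipogenic markers were at 2328 and 2552 CPM, and at 934 and 1102 CPM without tenocyte-marker cells, against 14587 and 14857 CPM in other kept cells. Tenocyte markers were at 1199 and 1801 CPM, and at 35.6 and 28.5 CPM without those cells. Red blood cell markers were at 293 and 859.6 CPM, all 4 counted genes being lower in ATRA+agonist as they were in the other kept cells (334 and 1018 CPM). Muscle fiber markers were at 337 and 183 CPM in gated cells and at 1931 and 480 CPM in other kept cells. Of the 6 counted genes, 2 were at least 2-fold higher and 3 at least 2-fold lower in gated than in other kept cells. Within gated cells 5 of the 6 were at least 1.5-fold higher in ATRA+agonist. The list median was 1.23 in gated and 1.87 in other kept cells, and in gated cells it was -0.31 without those that held Myog. The part of RNA released from fibers in the gated values was not tested. Mural markers were not low as a sum, at 900.4 and 629.9 CPM against 578 and 781 CPM in other kept cells. Notch3, which MuSCs also express, Acta2 and Tagln made up most of that sum, while the pericyte gene Rgs5 was at 5.23 and 4.28 CPM against 279.7 and 365 CPM and Higd1b was at 0. Acta2, smooth muscle actin, was at 371 and 168 CPM (1.14), and 10 cells held 45.5% and 32.2% of its UMIs.

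Measures of RNA quality were close between the libraries in the gated cells. Mitochondrial genes took 3.09% and 2.85% of UMIs, ribosomal protein genes took 19.5% and 20.3% against 12.8% and 11.2% in other kept cells, and Malat1 was at 26393 and 24775 CPM.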

How the data were processed

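The authors deposited UMI count matrices of 2 droplet libraries, 1 per group, from sorted cells of 2 pooled mice each. Per the file headers they were made with Cell Ranger 7.2.0, and per the labels with build GRCm38 (mm10). Counts were used as deposited and replicates were not available. The deposited matrices held 10444 and 17394 barcodes with 65197625 and 109343486 UMIs. Barcodes with 300 to 5000 genes, under 20% mitochondrial UMIs and under 0.25% Hbb- UMIs were kept. Doublets were not removed in the main analysis, and an alternative removed the 7.5% of cells with the highest simulated-doublet score.

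UMIs were summed per library over gated cells and over all other kept cells and scaled to CPM. Intervals were exact Poisson, Clopper-Pearson or conditional binomial intervals at 95%. Genes with 100 UMIs in gated cells were compared between libraries and called at 1.5-fold. Genes with 100 UMIs over all kept cells were compared with other kept cells and called at 2-fold with 10 CPM added. Named genes were the gate genes, the study's 7 genes, the 20 leading program genes with 100 UMIs in each library, and the 10 highest and 10 lowest genes between libraries among those 2-fold above the other kept cells in both libraries with at most 50% of the higher library's UMIs in 10 cells, plus the 5 most extreme on each side over all genes. Shares of cells were recomputed after thinning each cell to 2000 UMIs. Positions came from GENCODE M21 and promoters from RefSeq (GRCm38.p6), which held 51 of the 62 named genes. The members and gene lists were chosen with earlier results of these data known, and the limit of 10 UMIs for tenocyte-marker cells was set after the data were seen. Some named items are not reported here. Scripts were tested on simulated data and run in Python 3.11.15 with numpy 2.4.6, scipy 1.17.1, pandas 2.3.3 and scikit-learn 1.9.0.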

Additional observations from a re-analysis of the deposited data

Results flagged for a closer look

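Barcodes that the filters removed also passed the marker gate. In ATRA+agonist 28 of 2977 removed barcodes (0.941%, 0.626-1.36) did so, of which 18 had over 5000 genes, and 8 of the 28 held Myog with 243 UMIs. Mki67 was held by 9 of the 28. In DMSO vehicle 42 of 9877 (0.425%, 0.307-0.574) did so, of which 33 failed the hemoglobin limit, 0 held Myog and 5 held Mki67.

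In 4 genes the gated cells were at least 1.5-fold higher in ATRA+agonist while the other kept cells were at least 1.5-fold lower. All 4 are genes named above or members of the gene lists. The share of all counted genes with this pattern is not given, so the 4 are examples only. None of these differences could be tested with 1 library per group. The other kept cells pool types whose mix differed between the libraries. Zdbf2 had a log2 ratio of 0.84 in gated and -1.38 in other kept cells, and its ratio in gated cells was 0.58 at equal depth per cell. Gbp3, an interferon-induced GTPase, was at 0.98 and -1.27, from 66 and 41 UMIs in gated cells. Dbp, a clock output transcription factor, was at 0.72 and -0.59. Acta2 was at 1.14 and -0.65, and 10 gated cells held 45.5% of its UMIs in ATRA+agonist.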

How the results depend on the processing

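Without a replicate, each alternative was compared with the main value by its size. No paired analysis was possible because each group had 1 library, and no library could be left out. The alternatives without tenocyte-marker cells, with Chodl left out of the gate, and without tenocyte-marker and Myog cells were chosen after seeing the data. The share ratio of gated cells was 0.967 when cells of at least 2000 UMIs were thinned before the gate, and 0.829 in the same cells unthinned, which was also chosen after seeing the data. Genes higher and lower in ATRA+agonist numbered 94 and 130 in thinned cells, 727 and 780 at 30 UMIs, 74 and 98 at 300 UMIs, and 28 and 81 at 2-fold, where fewer or more genes can pass by construction. Program genes numbered 97 at 4-fold and 687 with 1 CPM added. Thinned shares were 8.76% and 9.54% for Myod1, 0.773% and 0.199% for Mki67, and 1.55% for Myog in ATRA+agonist, which was 1.53% at a marker sum of 10.

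The median of the differentiation list was 0.27 at a marker sum of 10, 3.09 with excluded genes at 0, 0.88 with no limit on them, 2.29 with no upper limit on genes, 0.20 without Myog cells and 0.18 without Myog and tenocyte-marker cells. That of the immediate early list was 0.49 at a sum of 10 and 0.24 both as a mean of per-cell CPM and thinned. In thinned cells the medians were -0.34 for myogenic factors, -0.22 for interferon genes, 0.22 for mitochondrial genes and -0.50 for tenocyte markers, which were also at -0.56 at a sum of 10 and -0.49 with excluded genes at 0. Fibro-adipogenic markers were at 0.078 with excluded genes at 0, -0.28 with no limit, 0.035 without doublets, -0.61 without tenocyte-marker cells and -0.56 without Myog cells as well. With no upper limit on genes, cell cycle genes were at 0.66, a change of sign from -0.31, and fiber markers were at 1.69. Red blood cell markers were at -2.20 without the hemoglobin filter. Fiber markers changed sign without Myog cells, to -0.31, and to -0.35 without tenocyte-marker cells too, and Acta1 was at -1.39 at a marker sum of 3. The cause was not tested. Scaling by the median of ratios shifted every log2 ratio by -0.03. Of the values that answer a comparison, 412 stayed close to the main value under their alternative and 40 moved. A further 2 changed sign from a main value past 1.5-fold. Of the other values 830 stayed close, 105 moved and 1 changed sign in that way. A change of sign from a smaller main value was counted as moved or close.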
